A study of Mus musculus with 10 samples.

Results

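The cells described here are supporting cells of the mouse utricle, a balance organ of the inner ear, after 5 days of culture with the solvent alone. They make up 3 of the 10 libraries of the series, chosen because their labels give this condition and the names of their tables give the same one. The utricles came from Lfng-EGFP mice at postnatal day 21, in which an EGFP reporter marks cells that use the Lfng gene. Whole organs were kept for 5 days with 0.1% DMSO, in a medium that holds growth factors, and the EGFP-positive cells were then collected by fluorescence-activated sorting. The other libraries belong to the study's comparison with TRULI, a small molecule that inhibits Lats kinases, and are not analysed here. The sort limits the model, because a cell enters only through the activity of the Lfng reporter. EGFP itself has no row in the tables. Neither the number of animals behind a library nor their sex is given. No uncultured utricle and no unsorted cells are among the 3 libraries, so the levels below are those of cultured and sorted cells.

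Supporting cells surround the sensory hair cells of the utricle and separate them from each other. They couple through gap junctions, seal the epithelium with tight and adherens junctions, and secrete the gelatinous matrix on which the otoconia, the mineral grains of the organ, rest. They rarely divide in the adult mammal and are the cells from which hair cells are replaced in birds and fish.

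The 3 tables sum to 2463872, 3411616 and 3852501 expected counts for replicates 1, 2 and 3. Protein-coding genes took 81.1%, 71.5% and 81.3% of them, and replicate 2 was the lowest in this share. The mitochondrial ribosomal RNA mt-Rnr2 took 16.8% (95% exact Clopper-Pearson interval 16.7 to 16.8), 26.4% (26.4 to 26.5) and 16.2% (16.2 to 16.3). These intervals and the floors below cover counting error only. Levels are given as FPKM, which is the expected count of a gene per kilobase of its effective length, scaled to 1000000 protein-coding counts in the library, and they may be compared between genes because they are per length. A gene of median length would need 0.850, 0.695 and 0.536 FPKM to reach 3 counts in replicates 1, 2 and 3. The replicates are separate samples in the labels, and no p-value is given because no groups are compared. Over 21630 genes, Pearson's r of log2(FPKM + 1) was 0.970 for replicates 1 and 2, 0.968 for 1 and 3, and 0.977 for 2 and 3. These correlations are across genes, which are not independent replicates. No pair of libraries had counts close enough to be 1 library entered again, so each was counted as a separate sample.

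The label of the cells was first set against marker genes. Of 18 markers of supporting cells, 17 stood at 1 FPKM or more in every library, and the median marker was at 252 FPKM. Over all 21630 protein-coding genes, 47.8% stood at 1 FPKM or more in every library. Lfng, the glycosyltransferase gene whose reporter defined the sort, was at 338, 310.0 and 319 FPKM in replicates 1, 2 and 3. S100b, a calcium-binding protein of supporting cells and glia, was at 699.8, 937 and 888 FPKM. Sox2, the transcription factor that maintains sensory progenitors and supporting cells, was at 61.0, 49.5 and 36.98 FPKM. Lfng was even across the libraries, S100b was lowest in replicate 1, and Sox2 was lowest in replicate 3.

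The remaining supporting-cell markers spanned a wide range. Epcam, an adhesion molecule of epithelia, stood at 3376 ± 446 FPKM (SD, n = 3). Slc1a3, a glutamate transporter, stood at 515 ± 139 FPKM, and Sox9 at 235 ± 36.2 FPKM. The connexins Gjb2 and Gjb6 averaged 327 and 300.2 FPKM, and the matrix genes Otog, Otoa and Tectb averaged 2638, 291 and 269 FPKM. Hes1, Cdh1, Jag1 and Sox10 followed at 111, 38.2, 20.0 and 14.2 FPKM. Cyp26b1, which degrades retinoic acid, averaged 7.25 FPKM. Gata3, a transcription factor of the ear, was the marker below 1 FPKM in every library, at 0.501, 0.824 and 0.750 FPKM from 3, 6 and 7 counts.

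Hair-cell markers were present at a much lower level. Of 17 such markers, 15 were at 1 FPKM or more in every library, beside 47.8% of all genes, and the median marker was at 4.85 FPKM. The hair-cell markers summed to 157, 102 and 87.2 FPKM in replicates 1, 2 and 3, against 9673, 9122 and 9291 FPKM for supporting-cell markers. In the latter sum, Epcam and Otog alone averaged 3376 and 2638 FPKM. Calb2, which encodes calretinin, was the highest hair-cell marker at 42.6, 21.8 and 14.4 FPKM, highest in replicate 1. Pou4f3, a transcription factor of hair cells, was at 23.1, 22.9 and 13.5 FPKM. Atoh1, the factor that specifies hair cells, was at 11.8, 1.52 and 3.89 FPKM, from 45, 7 and 23 counts, so that replicate 1 stood above the others. Otof, Gfi1, Cib2, Myo7a, Lhfpl5, Tmc1, Espn, Loxhd1, Slc17a8, Lhx3, Pvalb and Myo15 averaged between 2.21 and 11.3 FPKM. Barhl1 was at 1.09, 0.219 and 0.435 FPKM, from 5, 1 and 3 counts, and Ocm, which encodes oncomodulin, had 1 count in replicate 2 and 0 in the others. In bulk samples, fewer cells of a type and less RNA per cell cannot be told apart, so these levels give no share of hair cells.

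**Figure D1:**
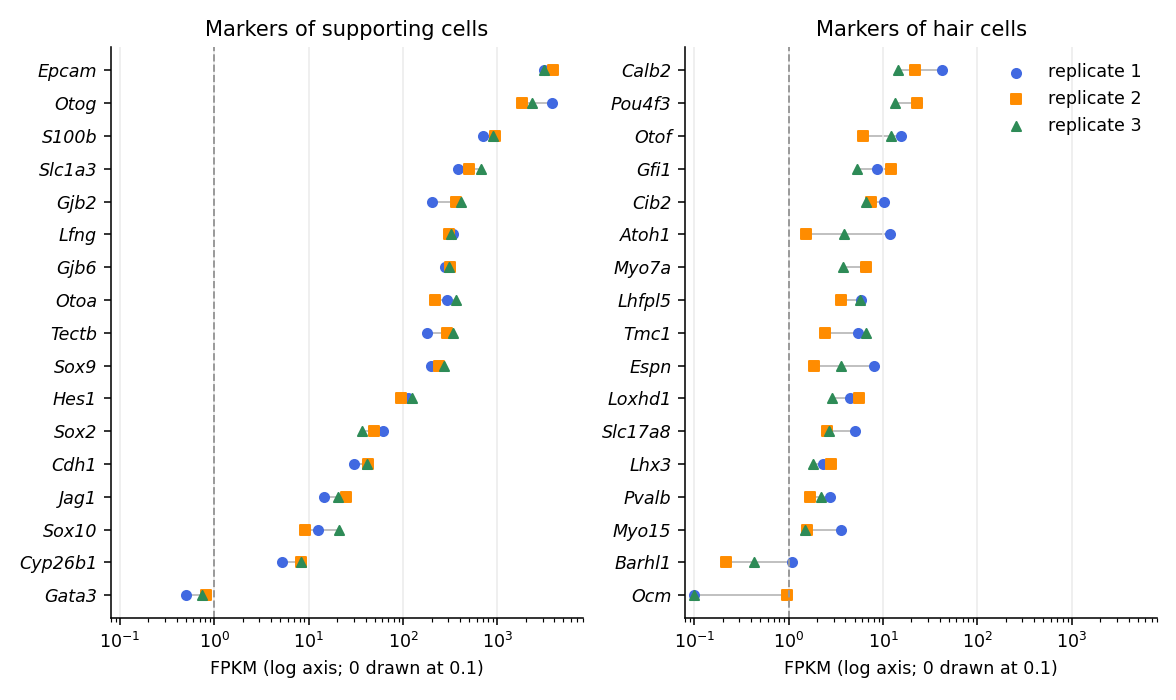
FPKM (log axis) of 17 supporting-cell markers (left) and 17 hair-cell markers (right) in the 3 libraries, with a point for each replicate, a grey line over their range, and a dashed line at 1 FPKM. Epcam averaged 3376 FPKM and Gata3 0.692 FPKM on the left, and Calb2, the highest on the right, averaged 26.3 FPKM.

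Markers of other cells of the organ were mostly at or near 0. All 8 macrophage markers, among them Ptprc and Csf1r, had 0 counts in every library, and 5 of 6 endothelial markers did. Over all protein-coding genes, 34.6% had 0 counts in every library. Among 5 melanocyte markers, 4 had 0 counts, and Pmel averaged 6.62 FPKM. Of 10 mesenchymal markers, 8 were below 1 FPKM in every library. By the mean, 10240 of 21630 protein-coding genes were below 1 FPKM. The highest mesenchymal markers were Pdgfra at 3.26, 3.14 and 5.82 FPKM and Col1a2 at 0.781, 2.80 and 2.06 FPKM. Pdgfra was highest in replicate 3, and Col1a2 was lowest in replicate 1.

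Some genes of these lists were present. Egr2, an immediate-early factor that also serves Schwann cells, was at 89.0, 79.1 and 139.7 FPKM, and Mbp, a myelin gene, at 8.02, 14.3 and 17.8 FPKM. The myelin genes Pmp22 and Prx had 1 count each over the 3 libraries. Of the neuronal markers, Snap25 was at 14.6, 7.55 and 2.09 FPKM, highest in replicate 1, and Nefl averaged 1.67 FPKM, while Prph and Stmn2 had 0 counts. Kcnq1, a potassium channel of the dark cells, averaged 18.7 FPKM and Oc90 1.77 FPKM, and the other 3 markers of dark and roof cells had 0 counts. The highest erythroid markers were Alas2, with 2 counts in all, and Hba-a1, with 0.5.

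Of 7 markers of dividing cells, 3 were at 1 FPKM or more in every library, beside 47.8% of all genes. The median marker was at 1.57 FPKM. Pcna, the clamp of DNA polymerase, stood far above it at 55.0, 83.4 and 33.5 FPKM, highest in replicate 2. Its expected counts were not whole, so they were split with other genes and its level is less certain. Cdk1 averaged 3.69 FPKM from 1, 15 and 10 counts. Mki67, which marks cycling cells, averaged 0.102 FPKM from 0, 5 and 3 counts, a number too small to order the libraries.

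Across the genome, 10337 of 21630 protein-coding genes (47.8%) stood at 1 FPKM or more in every library, and 7484 (34.6%) had 0 counts in all 3. A single library held 11120 to 11306 genes at 1 FPKM or more. A mean of 100 FPKM was reached by 914 genes and a mean of 1000 FPKM by 47, of which 43 were nuclear. The 43 nuclear genes took 14.2 ± 1.53% (SD, n = 3) of the protein-coding counts, the 859 between 100 and 1000 FPKM took 35.3 ± 0.817%, and the 5481 between 10 and 100 FPKM took 41.4 ± 0.727%. The 4994 between 1 and 10 FPKM took 7.04 ± 0.413%.

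The most abundant nuclear gene was S100a1, which encodes a calcium-binding protein of the S100 family. Its gene lies on chromosome 3 from 90511034 to 90514392 (GRCm38) and stood at 17983, 22301 and 14643 FPKM in replicates 1, 2 and 3, from 16433, 24353 and 20232 counts. It ranked first in each library, and its lowest library was above the highest library of every other nuclear gene.

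Below S100a1, levels fell into an order that the libraries did not keep. Among the 25 most abundant nuclear genes, 23 of 24 neighbouring pairs overlapped between libraries, and the exception was S100a1 against Actg1. The top 25 of each library had 21 genes in common, and the top 100 had 73. Within the 25 genes, 10 were highest in replicate 1, 11 in replicate 2 and 4 in replicate 3. Among the 5964 nuclear genes whose variation is described below, these numbers were 1918, 1880 and 2166. The 25 genes took 11.3 ± 1.52% (SD, n = 3) of the protein-coding counts.

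**Figure D2:**
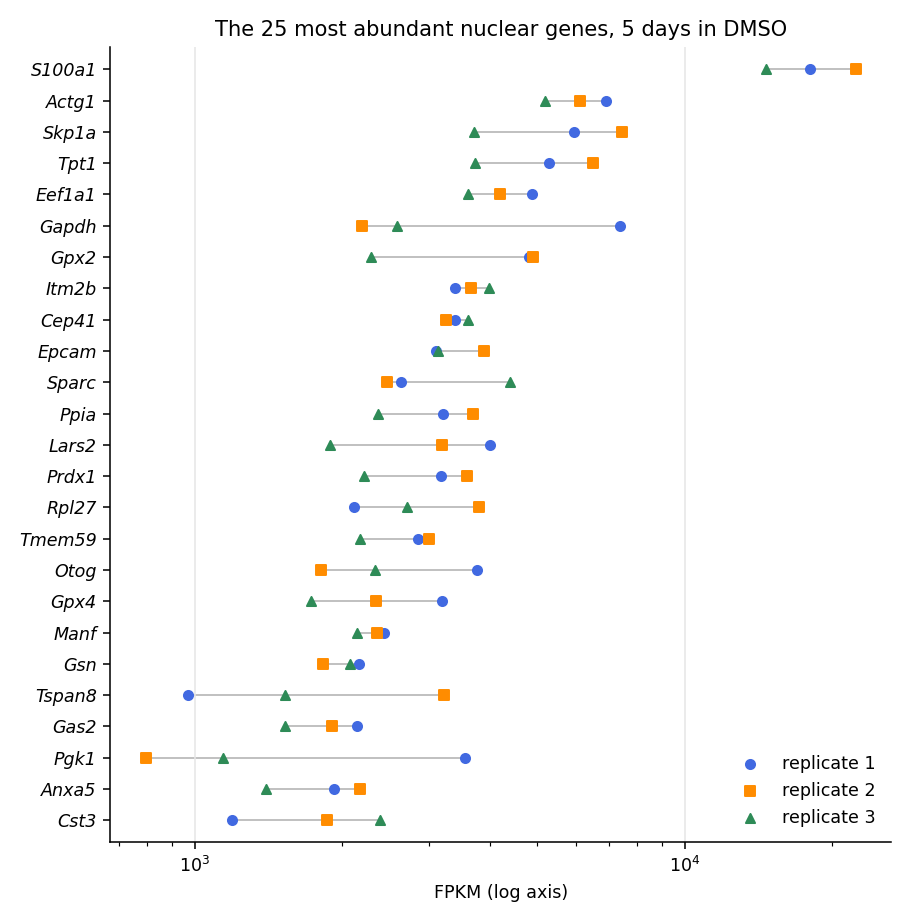
FPKM (log axis) of the 25 nuclear genes with the highest mean, with a point for each of the 3 libraries and a grey line over their range. S100a1 at 17983, 22301 and 14643 stands apart from the rest, and Gapdh (7359, 2196 and 2582), Pgk1 (3556, 795 and 1144) and Tspan8 (970.5, 3223 and 1528) have the widest ranges.

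The 25 genes served several functions. Actg1, the cytoplasmic gamma-actin, was at 6906, 6105 and 5185 FPKM. Gsn, which encodes the actin-severing protein gelsolin, averaged 2023 ± 172 FPKM, and Gas2, which links actin to microtubules, 1862 ± 309.5 FPKM. Cep41, a centrosomal and ciliary protein, was at 3402, 3257 and 3608 FPKM, among the most even of the 25.

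Genes of protein synthesis and turnover formed another group. The elongation factor Eef1a1 averaged 4222 ± 637 FPKM, the ribosomal protein gene Rpl27 2874 ± 852 FPKM, and Tpt1, the translationally controlled tumour protein, 5171 ± 1385 FPKM. Skp1a, an adaptor of ubiquitin ligases, was at 5944, 7455 and 3707 FPKM, above Actg1 in replicate 2 and below it in replicates 1 and 3. Ppia, the prolyl isomerase cyclophilin A, averaged 3093 ± 670.2 FPKM, Manf, a factor of the endoplasmic reticulum, 2311 ± 153 FPKM, and Lars2, the mitochondrial leucyl-tRNA synthetase, 3028 ± 1067 FPKM.

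Enzymes that remove peroxides were 3 of the 25. Gpx2, a glutathione peroxidase of epithelia, was at 4800.0, 4892 and 2286 FPKM, and the lowest library was replicate 3. Prdx1, a peroxiredoxin, averaged 2999 ± 711 FPKM, and Gpx4, which protects membrane lipids, 2423 ± 741 FPKM. Both were lowest in replicate 3 as well. The glycolytic enzymes Gapdh and Pgk1 also belonged to the 25 and are described with the variation between libraries.

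Secreted and membrane proteins made up most of the remaining genes. Sparc, a collagen-binding glycoprotein, was at 2637, 2465 and 4393 FPKM, highest in replicate 3. Otog, which encodes otogelin of the otoconial membrane, was at 3768, 1811 and 2335 FPKM, highest in replicate 1. Epcam was at 3099, 3891 and 3139 FPKM, and replicate 2 was the highest. Itm2b averaged 3676 ± 295 FPKM, Tmem59 2676 ± 442 FPKM, Anxa5, a phospholipid-binding annexin, 1828 ± 397 FPKM, and Cst3, the protease inhibitor cystatin C, 1811 ± 596 FPKM. Tspan8, a tetraspanin, was at 970.5, 3223 and 1528 FPKM, lowest in replicate 1.

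The 25 genes were short, with a median effective length of 1155 bases against 2336 for the 10337 genes at 1 FPKM or more. Ranked by counts without the length, 17 of the 25 stayed among the first 25. Of the 25, 13 overlapped another annotated gene, and since the strand setting of the counting is not given in the sources used here, reads of a gene and of an antisense partner cannot be told apart. The largest mean expected count of a partner on the opposite strand was 93.0, for Dcaf1 at Manf. Rbm15b, which overlaps Manf on the same strand, had 130. In 8 genes the expected count was not whole in at least 1 library (Actg1, Tpt1, Eef1a1, Gapdh, Gpx2, Ppia, Rpl27 and Pgk1), so their counts were split with other genes and their levels are less certain.

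To set the start of these genes beside their levels, the promoters of RefSeq (GRCm38.p6), from 250 bases before to 50 bases after the start, were searched on the gene strand for TATAAA, the core of the TATA box. Of the 25 genes, 23 matched the table by symbol, and 2 of them, Ppia and Prdx1, held the motif (8.70%), against 1563 of 16522 protein-coding genes (9.46%). In both it began 29 bases before the start. The windows of these 2 genes and of S100a1, the most abundant gene, which lacked the motif, follow 5′ to 3′ on the gene strand with the motif in capitals. They lie at chr11:6415617-6415916 (plus strand), chr4:116685349-116685648 (plus strand) and chr3:90514281-90514580 (minus strand).
Ppia: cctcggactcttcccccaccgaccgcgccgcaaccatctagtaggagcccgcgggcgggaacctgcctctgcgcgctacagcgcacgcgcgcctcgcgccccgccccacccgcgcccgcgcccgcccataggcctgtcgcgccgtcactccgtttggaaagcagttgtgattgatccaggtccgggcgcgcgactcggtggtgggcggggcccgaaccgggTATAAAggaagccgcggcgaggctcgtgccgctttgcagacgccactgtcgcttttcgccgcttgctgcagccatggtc
Prdx1: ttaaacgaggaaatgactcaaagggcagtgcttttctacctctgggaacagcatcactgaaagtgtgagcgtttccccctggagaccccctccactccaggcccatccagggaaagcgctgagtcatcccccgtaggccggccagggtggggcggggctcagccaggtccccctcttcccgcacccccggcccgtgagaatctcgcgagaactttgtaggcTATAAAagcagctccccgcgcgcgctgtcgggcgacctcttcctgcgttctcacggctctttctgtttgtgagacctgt
S100a1: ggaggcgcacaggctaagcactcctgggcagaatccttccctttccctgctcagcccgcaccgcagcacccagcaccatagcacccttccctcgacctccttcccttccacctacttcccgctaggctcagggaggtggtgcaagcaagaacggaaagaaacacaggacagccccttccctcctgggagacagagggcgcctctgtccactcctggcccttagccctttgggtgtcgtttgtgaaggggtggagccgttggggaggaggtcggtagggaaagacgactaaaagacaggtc
The share of G and C was 70.7% in Ppia, 60.7% in Prdx1 and 61.0% in S100a1. A match is a run of letters and not a shown binding site, and the absence of one says only that these letters are not in this window.

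Transcripts of the mitochondrial genome were kept apart from the nuclear ranking. The 13 protein-coding genes took 1.77 ± 0.437% of the protein-coding counts, with the highest share, 2.27%, in replicate 2. The expected counts of mt-Co1, mt-Co3, mt-Atp6, mt-Co2 and mt-Nd4l were not whole, so they were split with other genes. Their levels and this share are less certain. mt-Co1, a subunit of cytochrome c oxidase, was at 7951, 12276 and 7942 FPKM, second to S100a1. mt-Atp8 averaged 3373 FPKM from 151, 141 and 39 counts, but its effective length averaged only 13.9 bases, so its level rests on the length estimate.

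To compare functional classes, each gene received a percentile, its rank from the bottom as a share of the 21630 genes in that library, with tied genes at their average rank, and a class was described by the median of its members. Of the 4 main classes, junctions stood highest at 73.8, 75.8 and 79.0 in replicates 1, 2 and 3. Transcription factors stood at 73.2, 71.4 and 74.2, receptors at 66.8, 66.7 and 66.5, and matrix genes at 53.9, 54.3 and 54.1. The order was the same in each library, although junctions and transcription factors overlapped between libraries. The count of members at 1 FPKM or more in every library was 47 of 62 for junctions, 94 of 115 for transcription factors, 97 of 146 for receptors and 69 of 136 for matrix genes, beside 47.8% of all genes. This order depended on the genes that were not detected. With genes under 10 counts in all left out, the medians were 64.6 for matrix, 64.1 for junctions, 56.8 for transcription factors and 51.2 for receptors, and without the length correction receptors, at 75.1, passed transcription factors, at 74.1.

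**Figure D3:**
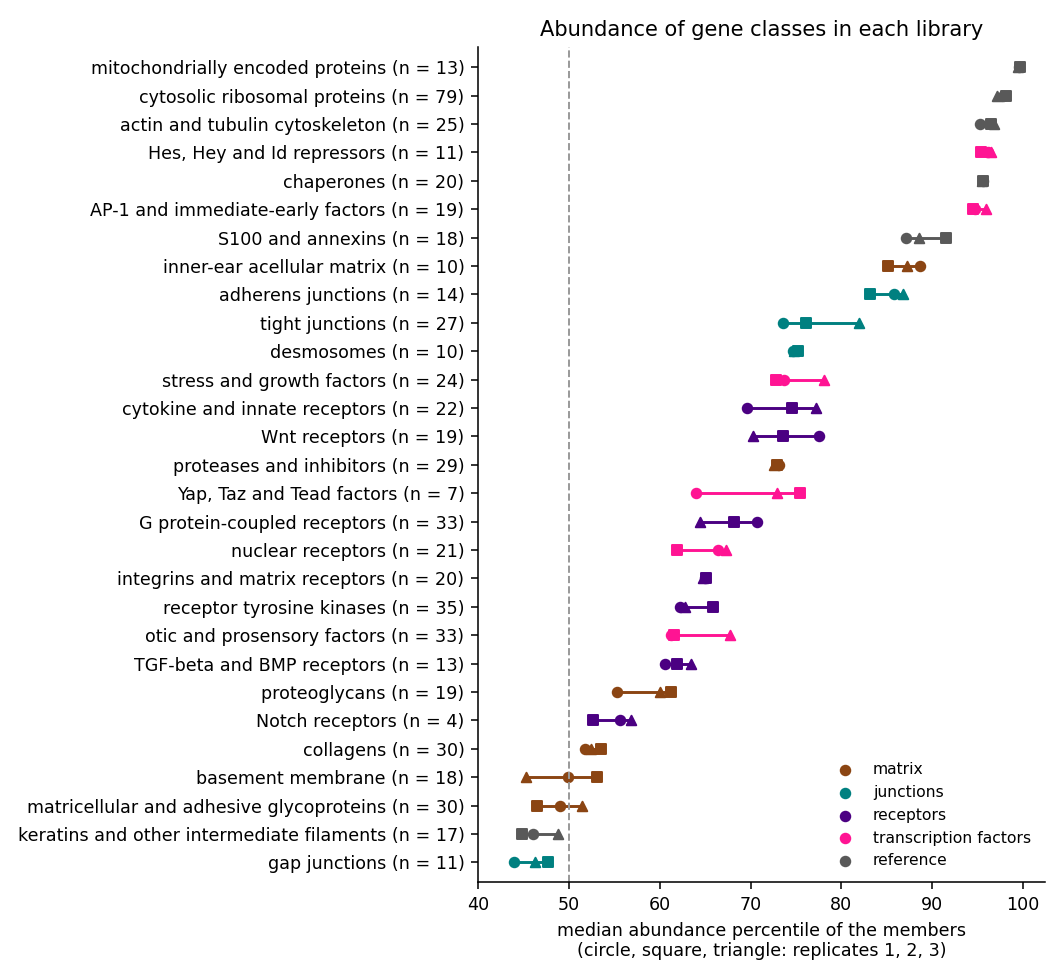
Median abundance percentile (horizontal axis) of the members of 29 gene groups in each library, ordered by their mean, with a line over the range of the libraries, a dashed line at the 50th percentile, and colours for the 4 classes and the reference groups. Hes, Hey and Id repressors at 96.0 ± 0.580 lie near the housekeeping groups, and gap junctions at 46.0 ± 1.91 lie lowest.

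For each group below, counts of members stand beside 47.8% of all genes at 1 FPKM or more and 34.6% at 0, in every library. Within the matrix class, the groups were far apart. The acellular matrix of the inner ear had a median percentile of 88.7, 85.1 and 87.2 in replicates 1, 2 and 3, with 7 of 10 genes at 1 FPKM or more in every library, and took 1.27 ± 0.347% of the protein-coding counts. After Otog came Otol1, the otoconial collagen otolin, at 759, 612 and 604 FPKM. Tecta, which encodes alpha-tectorin, was at 209, 278 and 493 FPKM, highest in replicate 3. Otoa and Tectb averaged 291 and 269 FPKM.

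The fibrous matrix was lower. Collagens had a median percentile of 51.7, 53.5 and 52.5. Of 30 collagens, 14 were at 1 FPKM or more in every library, near the 47.8% of all genes. The 5 highest were Col16a1, Col9a2, Col9a1, Col2a1 and Col11a1, with means from 48.2 to 169.6 FPKM. The first place of Col16a1 rests on an effective length of 727 bases. Its counts (163, 288 and 541) were the fewest of the 5, against 1276, 614 and 841 for Col2a1. Col9a2, a chain of the fibril-associated collagen IX, was at 69.4, 107 and 293 FPKM, highest in replicate 3, and Col2a1, the fibrillar collagen of cartilage and of the ear's matrices, was at 138, 55.5 and 57.8 FPKM, highest in replicate 1. Counts were 0 in all libraries for 6 of 30 collagens, among them Col4a6, Col6a3, Col8a1 and Col14a1, beside 34.6% of all genes.

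Basement membrane genes had a median percentile of 49.9, 53.0 and 45.3. Of 18 such genes, 8 were at 1 FPKM or more in every library, near the 47.8% of all genes. Agrn, Lama5 and Lamc1 were the highest, with means from 54.6 to 72.1 FPKM. Lamb1 was at 61.5, 3.45 and 5.62 FPKM, far higher in replicate 1 than in the others, and is described with the widest ratios. Lama3, Lamc3 and Hspg2 had 0 counts in every library. Hspg2 encodes perlecan, a large proteoglycan of basement membranes.

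Proteoglycans stood at 55.3, 61.3 and 60.1. Cspg5, a neural chondroitin sulfate proteoglycan, was at 417, 809 and 1287 FPKM, lowest in replicate 1 and highest in replicate 3. Sdc4, a syndecan, was even at 250.0, 235 and 241 FPKM. Ptprz1, Sdc2 and Sdc1 averaged 91.3, 87.4 and 73.8 FPKM, and Acan and Bcan had 0 counts.

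Matricellular and adhesive glycoproteins had a low median percentile, 49.0, 46.5 and 51.4, but took 0.688 ± 0.157% of the protein-coding counts, chiefly through Sparc and its relative Sparcl1. Sparcl1 was at 943, 725 and 1143 FPKM. Ccn1, a secreted target of Yap, averaged 249.8 ± 54.3 FPKM, and Smoc1 and Ltbp1 averaged 74.7 and 55.4 FPKM. Of the 30 genes, 7 had 0 counts, among them Tnxb, Thbs2, Ccn3 and Vtn, beside 34.6% of all genes.

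Proteases and their inhibitors stood at 73.1, 72.9 and 72.6. After Cst3, the cathepsin gene Ctsb averaged 330.5 ± 51.6 FPKM, the plasminogen activator gene Plat 289.7 ± 35.6 FPKM, Ctsd 199 ± 45.9 FPKM and the inhibitor gene Serpine2 149.5 ± 32.9 FPKM. The matrix metalloprotease genes Mmp3, Mmp9, Mmp10 and Mmp13 had 0 counts in all libraries.

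Among junctions, adherens junction genes had a median percentile of 85.8, 83.2 and 86.7. Ctnnb1, which encodes beta-catenin, was at 289, 363 and 267 FPKM. Afdn, Ctnna1, Nectin3 and Ctnnd1 averaged from 41.1 to 159 FPKM. Cdh1, the cadherin of epithelia, was at 30.4, 42.7 and 41.5 FPKM, lowest in replicate 1.

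Tight junction genes stood at 73.5, 76.1 and 82.0, with 23 of 27 at 1 FPKM or more in every library. Cldn7, a claudin, was the highest junction gene at 1307, 1119 and 1082 FPKM and ranked 39th of all genes by its mean. Cldn9, another claudin, was at 279.6, 219 and 351 FPKM. Ocln, which encodes occludin, was at 131, 64.8 and 58.5 FPKM, highest in replicate 1, and F11r and Ildr1, the latter of tricellular junctions, averaged 77.4 and 68.7 FPKM. Cldn5 and Cldn11 had 0 counts.

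Desmosomal genes had a median percentile of 74.7, 75.2 and 74.8. Perp averaged 119.9 ± 35.9 FPKM, Pkp4 79.9 ± 5.80 FPKM, Jup 30.4 ± 8.43 FPKM, Pkp2 26.3 ± 2.97 FPKM and Pkp3 15.7 ± 3.44 FPKM, and Dsc3 had 0 counts.

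Gap junctions were split. Gjb2, which encodes connexin 26, was at 201, 365 and 414 FPKM, lowest in replicate 1, and Gjb6, connexin 30, at 279, 313 and 309 FPKM. Panx1, a pannexin, was at 7.35, 33.2 and 4.86 FPKM from 25, 80 and 21 counts, far higher in replicate 2 than in the others. Gjc1 averaged 2.87 FPKM and Gja1, connexin 43, 1.19 FPKM. Gjb5 had 0 counts, and the median percentile over the 11 genes was 43.9, 47.7 and 46.2, the lowest of the groups by its mean.

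Receptors were of moderate level, and 9 of 146 reached a mean of 100 FPKM. Cytokine and innate receptors had a median percentile of 69.6, 74.6 and 77.2, led by Tnfrsf12a, the TWEAK receptor, at 159, 197 and 192 FPKM. Il13ra1, Ifnar2, Tnfrsf1a and Tlr3 averaged from 32.8 to 91.4 FPKM, and Fas had 0 counts. Wnt receptors stood at 77.6, 73.5 and 70.3, with 17 of 19 at 1 FPKM or more. Fzd6 was at 65.1, 84.5 and 90.3 FPKM, Fzd4, Fzd9, Fzd7 and Ryk averaged from 33.6 to 56.4 FPKM, and Fzd10 had 0 counts.

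G protein-coupled receptors had a median percentile of 70.7, 68.1 and 64.4. Ednrb, an endothelin receptor, was at 82.4, 159 and 188 FPKM, lowest in replicate 1. Gpr37, Celsr2, Adgrl2 and F2r, the thrombin receptor, averaged from 97.0 to 126 FPKM, and Ptger2 had 0 counts. Integrins and other matrix receptors stood at 65.0, 65.1 and 64.8. Itgav, an integrin alpha chain, was the highest receptor of any group at 276, 591 and 442 FPKM, highest in replicate 2. Its effective length averaged 935 bases, so this place rests partly on the length. By counts (610, 1160 and 1237) Itgav was below Gpr37 (1268, 1236 and 1981) and Erbb3 (865, 1497 and 2163). Cd47, Itgb1, Dag1 and Cd151 averaged from 39.8 to 137 FPKM, and Itga7 and Itgb2 had 0 counts.

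Receptor tyrosine kinases had a median percentile of 62.2, 65.8 and 62.7, and 22 of 35 were at 1 FPKM or more in every library. Erbb3, a receptor for neuregulins, was at 74.7, 106 and 119 FPKM. Ephb1, Ddr1, Mertk and Tyro3 averaged from 28.9 to 70.4 FPKM. Mst1r, Kdr and Ntrk3 were among the 5 with 0 counts.

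Receptors of the TGF-beta and BMP families stood at 60.6, 61.8 and 63.4. Acvr1, Bmpr1a, Tgfbr2, Bmpr2 and Acvr2a averaged 54.2, 47.2, 16.9, 9.35 and 7.14 FPKM, and Acvrl1 and Eng had 0 counts. Of the 4 Notch receptors, which carry signals between neighbouring cells, Notch1 was at 23.7, 18.6 and 25.5 FPKM and Notch3 at 7.42, 4.72 and 9.69 FPKM. Notch2 averaged 0.435 FPKM and Notch4 had 3 counts, all in replicate 3.

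A pair of transcription factor groups stood near the housekeeping genes. The Hes, Hey and Id repressors had a median percentile of 96.2, 95.3 and 96.5 in replicates 1, 2 and 3, beside 97.8, 98.1 and 97.2 for cytosolic ribosomal proteins. Id1, an inhibitor of basic helix-loop-helix factors, was at 105, 280.4 and 460.4 FPKM, lowest in replicate 1. Hey1 and Hey2, targets of Notch signaling, were at 205, 181 and 296 FPKM and 129, 111 and 183 FPKM. Id2 and Id4 averaged 282 and 164 FPKM. Hes4 was listed, but its symbol matched none of the protein-coding genes measured here.

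AP-1 and immediate-early factors, which cells induce within minutes of a stimulus, had a median percentile of 94.7, 94.4 and 95.9. The cells were sorted before their RNA was taken, so levels set in culture and levels set during the sort cannot be told apart. Fos, an AP-1 subunit, was the most abundant of the 115 listed transcription factors at 1510.4, 1639.9 and 1592 FPKM, and the libraries were close. Egr1 was at 611, 438 and 564 FPKM. Junb, another AP-1 subunit, was at 81.9, 145 and 476 FPKM, so that replicate 3 stood far above the others. Atf4 and Ier2 averaged 199 and 183 FPKM.

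Otic and prosensory factors had a median percentile of 61.3, 61.5 and 67.7, with 24 of 33 at 1 FPKM or more in every library. Sox9 was at 196, 240.4 and 268 FPKM. Zbtb20 was at 190.0, 170.5 and 248 FPKM, and both were highest in replicate 3. Sox21 and Isl1 averaged 101 and 88.7 FPKM, and Pax8, Tbx1 and Otx1 had 0 counts.

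Stress and growth factors stood at 73.7, 72.8 and 78.0. Xbp1, of the unfolded protein response, averaged 199 ± 36.4 FPKM, and Nfe2l2, which drives antioxidant genes, 189 ± 19.2 FPKM. Hif1a, the subunit of the hypoxia-inducible factor, was at 134, 204 and 178 FPKM, lowest in replicate 1. Mxi1 and Stat3 averaged 117 and 55.5 FPKM.

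Of the nuclear receptors, Nr4a1, an immediate-early orphan receptor, was at 525, 472 and 523 FPKM. Rarb, Ppard and Rora averaged from 14.9 to 24.4 FPKM, and Esrrb and Pparg had 0 counts. Yap1, the effector of the Hippo pathway that the study set out to activate, was at 42.2, 50.3 and 44.0 FPKM. Its paralog Wwtr1, which encodes Taz, was at 27.6, 27.8 and 21.5 FPKM, and Vgll4, a competitor of Yap for Tead factors, at 42.3, 41.2 and 47.7 FPKM. Of the Tead factors, the partners that bind DNA, Tead1 averaged 8.35 FPKM. Tead4 was at 2.74, 13.5 and 4.64 FPKM, from 11, 75 and 37 counts, and was highest in replicate 2. All 7 members of this group were at 1 FPKM or more in every library.

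The reference groups give the scale. The median percentile was 97.7 ± 0.489 (SD, n = 3) for 79 cytosolic ribosomal protein genes, led after Rpl27 by Rpl10, Rplp1, Rps3a1 and Rps4x. It was 96.2 ± 0.833 for actin and tubulin genes, where Actb, Tubb4b, Tmsb4x and Actn4 averaged 1435, 928, 559.6 and 361 FPKM and Acta2 had 0 counts. Chaperones stood at 95.5 ± 0.103, led by Hspa5, Hspa8, Calr, Hsp90ab1 and Hsp90b1, with means from 559 to 996 FPKM. The other S100 genes and annexins were well below S100a1 and Anxa5, with Anxa2, S100a10 and S100a11 averaging 612, 341 and 320.1 FPKM and S100a8 at 0 counts.

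Keratins and other intermediate filaments had a low median percentile of 46.6 ± 2.00, with 6 of 17 at 1 FPKM or more in every library. Krt8 and Krt18, the pair of simple epithelia, were at 274, 331 and 338 FPKM and 234, 269 and 292 FPKM. Vim, which encodes vimentin, was at 211, 961 and 1057 FPKM, so that replicate 1 was far below the others. Krt19 and Lmna averaged 49.0 and 24.7 FPKM. The keratins of stratified epithelia Krt5, Krt14 and Krt17 had 0 counts, as did Krt80.

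Across the 29 groups, 24 of 28 neighbouring pairs in the order of median percentiles overlapped between libraries. The pairs that did not overlap were mitochondrially encoded and cytosolic ribosomal proteins, ribosomal proteins and the cytoskeleton, AP-1 factors and S100 genes with annexins, and adherens and tight junctions.

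The spread between libraries was larger than counting alone would give. The biological coefficient of variation, from the common dispersion of edgeR over 9473 genes, was 0.254. Among the 43 nuclear genes at a mean of 1000 FPKM or more the median coefficient of variation was 21.7%, against 1.31% from counting, and among 857 genes from 100 to 1000 FPKM with 50 or more counts in every library it was 20.6% against 3.68%. With the same minimum, the values for 4241 genes from 10 to 100 FPKM were 19.2% against 7.52%. Of 5964 nuclear genes at a mean of 10 FPKM or more with 50 counts in the highest library, 270 (4.53%) had a highest FPKM at least 3 times the lowest. Replicate 1 was the highest library for 115 of them, replicate 2 for 52 and replicate 3 for 103. Over all 5964 genes these numbers were 1918, 1880 and 2166. On counts scaled to the library total alone, without the length, 193 genes reached this ratio, 175 of them in common.

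**Figure D4:**
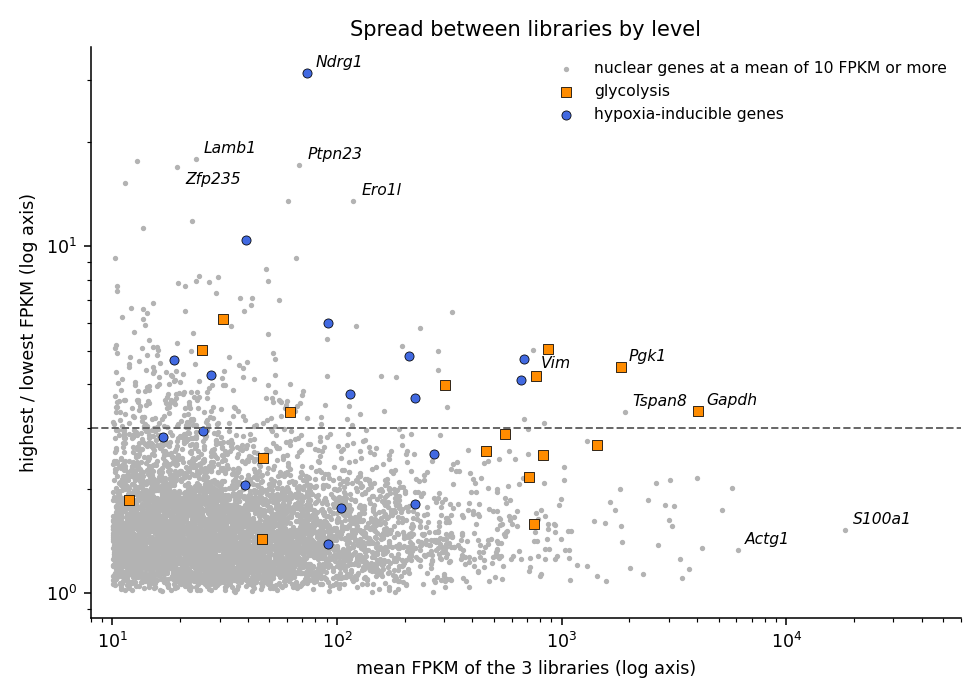
Ratio of the highest to the lowest FPKM of the 3 libraries (log axis) against the mean FPKM (log axis) for nuclear genes at a mean of 10 FPKM or more and 50 or more counts in the highest library, without genes at 0 in a library, with a dashed line at a ratio of 3. Ndrg1 has the highest ratio at 31.4, while Actg1 (1.33) and S100a1 (1.52) stay low. Squares and circles mark glycolytic and hypoxia-inducible genes.

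Among the 10 genes with the widest ratio, Ndrg1, a stress-response gene induced by low oxygen, was at 184, 5.86 and 31.2 FPKM, from 980, 38 and 259 counts. Ero1l, an oxidase of the endoplasmic reticulum, was at 290.0, 21.5 and 43.3 FPKM. Ndufa4l2, a mitochondrial protein induced by low oxygen, was at 35.1, 0 and 3.52 FPKM. Its level in replicate 1 was at least 20.9-fold higher than 3 counts in replicate 2, where it had 0. All 3 genes were highest in replicate 1 and lowest in replicate 2.

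For other genes of the 10 the estimated length moved with the level. Lamb1, a laminin chain, had 76, 37 and 71 counts and 61.5, 3.45 and 5.62 FPKM, while its effective length was 618 bases in replicate 1 and 4403 and 4031 bases in replicates 2 and 3. Without the length its ratio was 2.51. Ptpn23 had effective lengths of 888, 3493 and 1029 bases, and its ratio was 17.1 with the length and 4.35 without it. Zfp235 and Rpgrip1 fell from 16.9 to 6.56 and from 17.6 to 9.99 when the length was left out, and Gstm7 from 11.8 to 7.84. Tmem179 (1.39, 11.5 and 21.2 FPKM) and Atp5e (32.2, 139 and 10.3 FPKM) kept ratios of 15.1 and 12.3. Over the 5964 genes the effective length differed between libraries by a median ratio of 1.05, and by 2 or more for 117 genes.

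Glycolytic and hypoxia-inducible genes were described as lists after their values had been seen, so their counts are a description. Of 17 glycolytic genes at a mean of 10 FPKM or more, 15 were highest in replicate 1, and 13 stood there at more than 1.5 times both other libraries. For 17 hypoxia-inducible genes the counts were again 15 and 13. Among all 5964 nuclear genes, 1918 were highest in replicate 1, and 364 stood there at more than 1.5 times both others. The median ratio of replicate 1 to the mean of the others was 2.20 for the glycolytic list, 2.80 for the hypoxia-inducible list and 0.958 for all.

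Gapdh, a central enzyme of glycolysis, was at 7359, 2196 and 2582 FPKM, and it ranked 3rd, 21st and 12th of all genes in replicates 1, 2 and 3. Pgk1, the next enzyme of the pathway and a source of ATP, was at 3556, 795 and 1144 FPKM. Pgam1, the mutase that follows, was at 1758, 348 and 510.4 FPKM. In each of them replicate 1 was far above both other libraries, and replicate 2 was the lowest.

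The same order of the libraries was found for Ldha, which makes lactate, at 2189.6, 822 and 1297 FPKM, and for Car9, a carbonic anhydrase induced by low oxygen, at 1270.0, 268 and 510.0 FPKM. Bnip3, a mitophagy receptor, was at 1265, 308 and 406 FPKM. Vegfa, the vascular growth factor, was at 402, 110.2 and 156 FPKM. These genes were higher in replicate 3 than in replicate 2 as well.

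Some members did not follow. Hk1 was at 49.5, 36.8 and 52.7 FPKM, Slc2a1, a glucose transporter, at 109, 74.0 and 129.9 FPKM, and Pdk1 at 27.7, 12.3 and 35.9 FPKM, each highest in replicate 3. Ddit4, at 104, 94.6 and 75.3 FPKM, was highest in replicate 1 by a small margin and lowest in replicate 3. Hif1a itself was lowest in replicate 1, as given above. Replicate 1 also had the smallest total of counts, and its part in these differences was not tested.

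**Figure D5:**
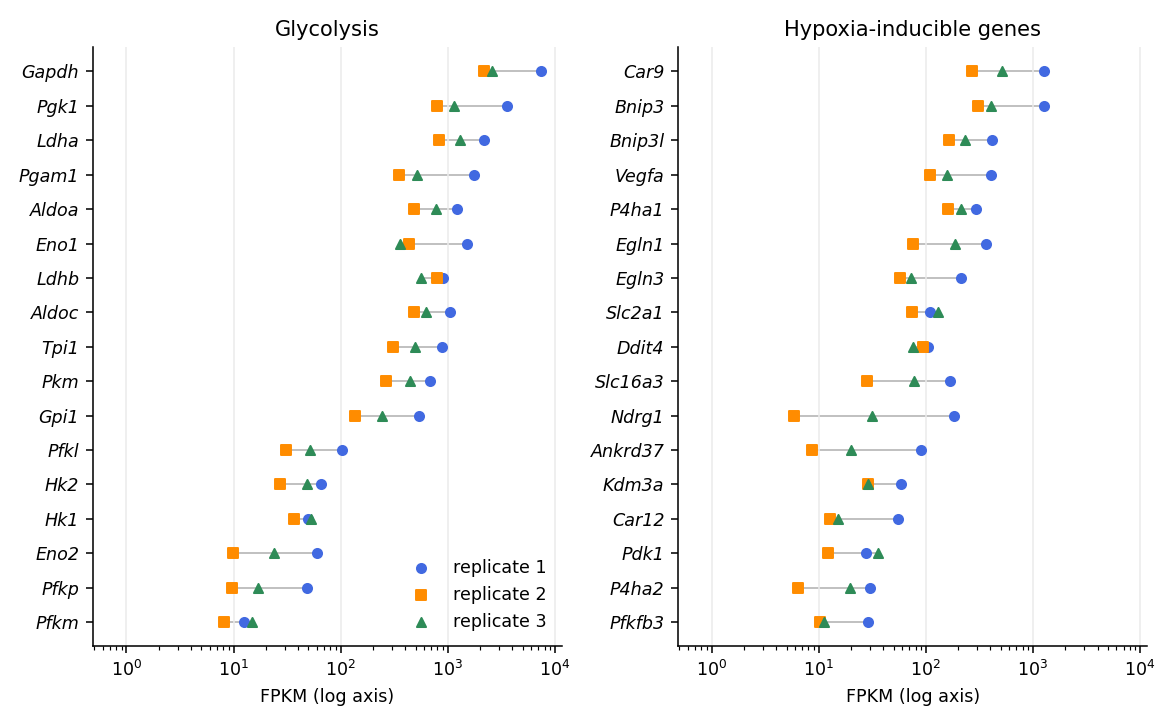
FPKM (log axis) of the glycolytic genes (left) and hypoxia-inducible genes (right) at a mean of 10 FPKM or more, with a point for each library and a grey line over the range. Circles, for replicate 1, lie rightmost in 15 of 17 genes of each list, as for Pgk1 (3556, 795 and 1144 FPKM) and Car9 (1270.0, 268 and 510.0 FPKM).

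At the other end, the 10 genes with the smallest ratio had ratios of at most 1.02. Cdk2ap1, an inhibitor of a cell-cycle kinase, was at 266, 267 and 268 FPKM, Tmem117 at 179.8, 180.4 and 182 FPKM and Cmas, which activates sialic acid, at 144, 142 and 143 FPKM. Slc26a4, the anion exchanger pendrin, was at 91.1, 92.6 and 92.6 FPKM. The others were Tbc1d20, Tlk1, Rras2, Mia2, Rasa2 and Dnajb1, with means from 16.6 to 41.9 FPKM. With counts as low as 76, counting alone gives a wider spread than these ratios.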

How the data were processed

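Supporting cells of P21 Lfng-EGFP utricles cultured for 5 days in 0.1% DMSO were profiled in 3 libraries of RNA sequencing. The authors mapped paired reads with STAR to GRCm38 and deposited expected counts per gene with an effective length, not normalized. The counting program is not given in the sources used here, and the layout is that of RSEM. The library kit is a TruSeq kit with poly(A) selection in the labels and a QIAseq kit in the methods. The tables sum to 2463872 to 3852501 counts, far below the number of reads per library that the methods state, and the sources do not account for the difference.

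Of 48709 genes, 48349 matched GENCODE M21 by Ensembl identifier and 21695 were protein-coding, of which 65 without an effective length (0 counts) were left out. Unmatched genes held 0.0198% to 0.0217% of counts. FPKM was computed from the expected count, the effective length of each library and the protein-coding total, with Python 3.11.15 and pandas 2.3.3, and checked on simulated data. Spread was taken from the common dispersion of edgeR 4.0.16 (R 4.3.3) after rounding, filterByExpr and TMM scaling, with an intercept only. No treatment groups were compared and no test between groups was run.

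The 542 listed genes, markers and classes were chosen with earlier results of these data known, and the glycolytic and hypoxia lists after the values were seen. Named genes are the 25 nuclear genes with the highest mean FPKM among those with 50 or more counts in every library. They also include every supporting-cell and hair-cell marker, the 2 highest members of other marker lists, and for each gene group the 5 highest members with up to 4 at 0 counts. The last were the 10 widest and the 10 narrowest ratios among nuclear genes at a mean of 10 FPKM or more with at least 50 counts, in the highest library for the widest and in every library for the narrowest. Some genes that this rule names are not reported here. Other genes were chosen after their values were seen. Alternatives were other totals, lengths, scalings, thresholds and filters, and leaving out each library.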

Additional observations from a re-analysis of the deposited data

Results flagged for a closer look

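The protein-coding levels leave out other transcripts, and 5 of these were the most abundant of their kind in counts scaled to 1000000 of all counts (CPM), all above the limit that a count of 0 allows. The mitochondrial 16S ribosomal RNA mt-Rnr2 averaged 198084 ± 57462 CPM (SD, n = 3), highest in replicate 2. CT010467.1, annotated as a ribosomal RNA, averaged 5712 CPM and was highest in replicate 3. Gm10925, annotated as a pseudogene, averaged 1493 CPM, and AY036118, annotated as a long non-coding RNA, averaged 1061 CPM. Both were highest in replicate 2. The 12S ribosomal RNA mt-Rnr1 averaged 1002 CPM. Expected counts of CT010467.1, Gm10925 and AY036118 were not whole, so they were split with other genes and their levels are less certain.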

How the results depend on the processing

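The number of genes at 1 FPKM or more in every library ranged from 10039 to 11143 over changes of the total, length, scaling, filter and libraries, beside 10337. It was 7408 at 5 FPKM and 11390 for a mean of 1 FPKM. Without the length correction the median percentile was 58.9 for matrix genes and 75.1 for receptors. With the annotated length these were 54.3 and 67.5, and without genes shorter than 200 bases 53.6 and 66.3. With genes under 10 counts in all left out, the medians were 64.6 for matrix genes and 64.1 for junctions. They were 51.2 for receptors and 56.8 for transcription factors. Fewer genes were then ranked, and the classes lost their members under this limit, among them 25 of 136 matrix genes at 0 counts. The 25 most abundant genes took 8.79% of the counts of all biotypes in place of 11.3% of the protein-coding counts. Of the 25, between 17 (no length correction) and 25 stayed under the alternatives. The biological coefficient of variation was 0.231 to 0.281 with a library left out and 0.291 with no filter. With a library left out, a class value is the mean of the medians of the remaining libraries. It must stay within their range, so it cannot show how stable the class medians are. Depth limits what is said of genes below about 1 FPKM, since 3 counts of a gene of median length make 0.536 to 0.850 FPKM. No paired analysis was possible because no groups are compared.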
